A study of Mus musculus with 32 samples.

Results

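The genes described here are 42 genes of mitosis and the mitotic spindle, the machinery that condenses, aligns and separates chromosomes and then divides the cell. They were chosen by symbol from a list written for this work, all 42 were found among the 55450 genes of the count table, and all 42 passed the filter on low counts in each fit. Their levels were read in 32 RNA sequencing libraries of bulk tissue from female mice, 14 from allografts, 12 from tumours of genetically engineered mice (GEMM) and 6 from normal tissue. The allografts are tumours of the same 4 models that the labels call allografts, and neither the source tumour nor the host of an allograft is given.

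All tumours carry Brca1 fl/fl and K18GT121 Tg/+, a transgene under the keratin 18 promoter that inhibits Rb once Cre has acted. OSE-BPR (5 allografts, 3 GEMM tumours, strain FVB) also carries Trp53 fl/fl and arises in the surface epithelium of the ovary, where adenoviral Cre was injected under the bursa. Ad-BPR (4 allografts, 2 GEMM tumours) has the same genotype and was started by adenoviral Cre given into the oviduct. Pax8-BPR (2 allografts, 4 GEMM tumours) adds Pax8-CreERT2 Tg/+, which directs Cre to secretory cells of the oviduct after tamoxifen. Ovgp1-BPR (3 allografts, 3 GEMM tumours) adds Ovgp1-CreERT2 Tg/+, also induced by tamoxifen in oviduct secretory cells, and its samples are labelled Trp53 KozR172H ki/+, while the study's design text gives both Trp53 fl/fl and a Trp53 mutation for it. The last 3 models are C57Bl/6 by label, as are the wild-type normal oviduct (3 libraries) and normal ovary (3 libraries), which came from the same 3 animals. Tumours were taken at endpoint, and ages are not labelled.

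Entry into mitosis is driven by cyclin-dependent kinase 1 with cyclins A and B, and it is reversed when the anaphase-promoting complex, helped by Cdc20, has the cyclins and securin destroyed. Most of these genes are switched on late in the cell cycle by B-Myb (Mybl2) with the MuvB core and by Foxm1, and in resting cells they are held down by the DREAM complex of MuvB, E2F4 and the Rb relatives p107 and p130. DREAM and B-Myb-MuvB meet such promoters at a short element, the cell cycle genes homology region (CHR), often downstream of CCAAT boxes, which bind NF-Y. Their transcripts mark dividing cells, and in bulk tissue fewer dividing cells and less RNA per cell cannot be told apart.

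Promoters from RefSeq (build GRCm38.p6, 250 bases before to 50 bases after the start of the gene, read along its transcript) were matched for 34 of the 42 genes. Foxm1, Kif20a, Incenp, Spc24, Ccna2, Aurkb, Cdc25c and Tpx2 were not matched. Bub3, Ect2 and Prc1 have several promoters. All shares below are counted by gene, and a gene with several promoters counts if any of them holds the word. CHR words (TTTGAA or TTCGAA, both strands) stood in 26 of the 34 promoters, 76.5% (95% exact binomial interval 58.8 to 89.3%, counting error only), against 21.7% of 27025 genes with a promoter in the same table. Within the 100 bases before to 50 bases after the start a CHR word stood in 25 of the 34 promoters (73.5%), against 9.87% of all promoters. CCAAT boxes (CCAAT, both strands, neither word containing the other) stood in 24 of the 34 (70.6%), against 41.1% of all promoters, and both kinds stood together in 22 of the 34 (64.7%), against 8.61%. Of 60 other mitosis genes with a promoter 36 had a CHR word (60%), and of 15 genes of DNA replication (S phase) 3 had one (20%). A CCAAT box stood in 42 of those 60 (70%) and in 10 of those 15 (66.7%), so its share was not particular to the 34. These shares describe letters in a window and not binding. Promoters of 5 genes are shown from 100 bases before to 10 bases after the start. CHR words and CCAAT boxes of either strand are in capitals. The 5 were picked, among genes given with full statistics, for holding a CHR word, so they add nothing to the shares above. Birc5, Ccnb1, Cenpe and Pttg1, also given with full statistics, had no CHR word in the promoter, and neither had Kif18a, Mad2l1, Mybl2 and Nuf2. The list of 42 genes and the measurements did not use these motifs.
Cdk1: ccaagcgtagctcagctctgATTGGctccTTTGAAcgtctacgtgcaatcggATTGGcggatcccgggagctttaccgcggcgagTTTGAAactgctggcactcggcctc
Cdc20: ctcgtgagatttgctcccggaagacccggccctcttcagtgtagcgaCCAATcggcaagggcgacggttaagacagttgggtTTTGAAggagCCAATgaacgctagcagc
Kif11: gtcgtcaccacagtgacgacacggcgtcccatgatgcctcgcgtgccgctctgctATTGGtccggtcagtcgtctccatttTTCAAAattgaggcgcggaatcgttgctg
Prc1: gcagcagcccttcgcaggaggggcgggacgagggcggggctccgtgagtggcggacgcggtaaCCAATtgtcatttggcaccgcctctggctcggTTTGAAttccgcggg
Top2a: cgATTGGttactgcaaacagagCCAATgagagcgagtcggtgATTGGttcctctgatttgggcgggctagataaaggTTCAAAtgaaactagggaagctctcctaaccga
The Cdk1 stretch is chr10:69352903-69353012 on the minus strand. The Cdc20 stretch is chr4:118437334-118437443 on the minus strand. The Kif11 stretch is chr19:37376282-37376391 on the plus strand. The Prc1 stretch is chr7:80294351-80294460 on the plus strand. The Top2a stretch is chr11:99024180-99024289 on the minus strand. Cdk1 holds 2 CHR words and 2 CCAAT boxes in the stretch shown, and Top2a holds 3 CCAAT boxes ahead of 1 CHR word in reverse orientation. In Cdc20 one CCAAT box stands on either side of the CHR word, and Kif11 and Prc1 have 1 box ahead of 1 word.

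**Figure D1:**
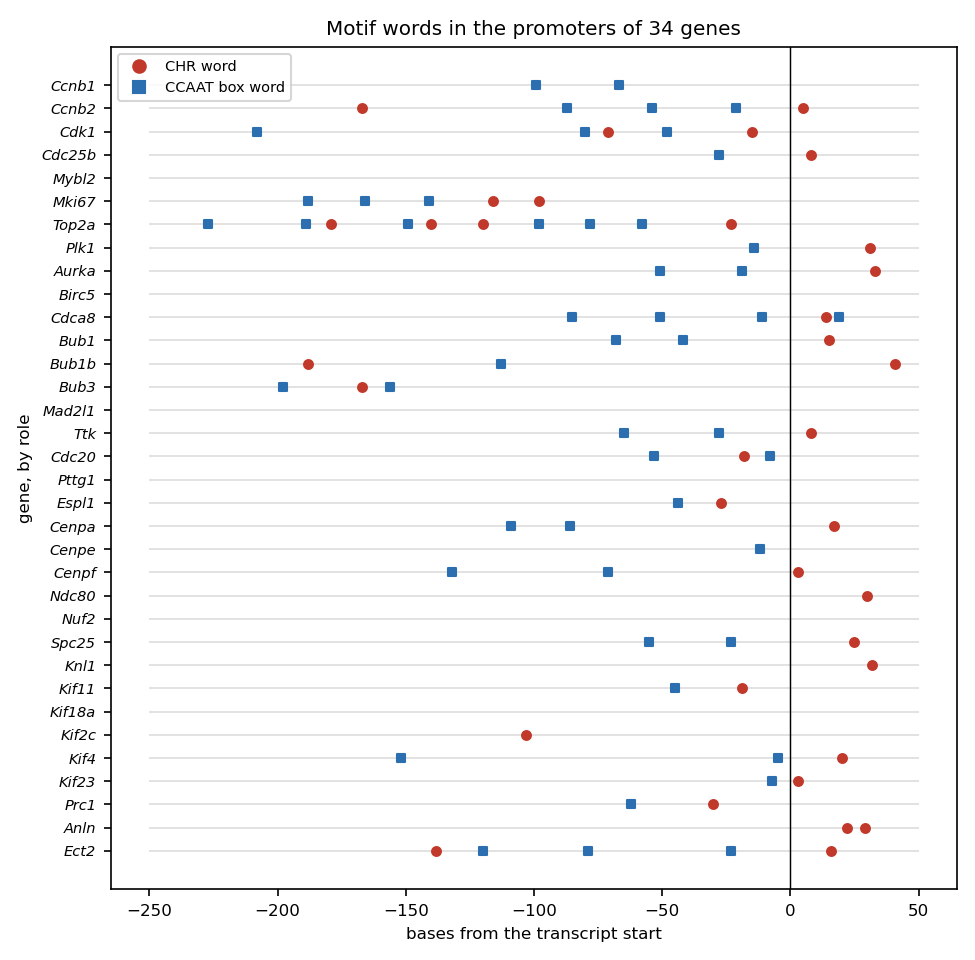
Position of CHR words (red circles) and CCAAT boxes (blue squares), in bases from the transcript start, in the RefSeq promoters of the 34 matched genes. For Bub3, Ect2 and Prc1, which have several promoters, only the first is drawn. Counting any promoter of a gene, CHR words lie from 100 bases before to 50 bases after the start in 25 of the 34 genes. For Bub3 that word is in the promoter not drawn.

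Libraries held 13987123 to 20514825 assigned counts, with a median of 17426862. The labels were read against defining markers on the TPM scale (a share of all transcripts that adjusts for gene length). Ovgp1, the oviduct glycoprotein, was at 2504 to 6607 TPM in normal oviduct and at most 3.41 TPM in normal ovary. The list of 14 oocyte genes summed to 17.6 to 189.7 TPM in oviduct libraries and 516 to 571 TPM in ovary libraries, and the list of 10 granulosa, theca and luteal genes to 71.7 to 1108 and 8859 to 9217 TPM, and no marker of either list was at 0 in every library of either tissue. Oviduct replicates 1 and 3 carry most of these ovarian transcripts. Epcam, an epithelial adhesion molecule, was at 0.53 to 578 TPM in Ovgp1-BPR allografts and 4.45 to 240.2 TPM in Ovgp1-BPR GEMM tumours, while it was above 476 TPM in every tumour of the other models.

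Across the 26 tumours the genes spanned a wide range of levels per length. Top2a, the topoisomerase that untangles sister chromatids, was the most abundant with a mean of 247 TPM (74.3 to 569.8), followed by Cdk1, the kinase of mitotic entry, with 215 TPM (91.3 to 391) and Cdc20, the activator of the anaphase-promoting complex, with 175 TPM (51.9 to 524). The least abundant were Knl1, a scaffold of the outer kinetochore, with 6.84 TPM (1.89 to 14.6) and Kif18a, a kinesin that limits chromosome movement, with 8.66 TPM (2.71 to 21). Their ratio of highest to lowest tumour differed as well. It was widest for Kif11, the motor that pushes spindle poles apart, at 14.8, and narrowest for Ndc80, the microtubule-binding subunit of the kinetochore, at 2.58.

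Summed over the 42 genes, the level was 3023 to 5002 TPM in OSE-BPR allografts and 2254 to 3382 TPM in OSE-BPR GEMM tumours. It was 2279 to 2517 TPM in Ad-BPR allografts and 2083 to 2668 TPM in Ad-BPR GEMM tumours. Pax8-BPR allografts had 3117 and 3444 TPM, and Pax8-BPR GEMM tumours had 1180, 2177, 2687 and 3030 TPM, in order of replicate. The Ovgp1-BPR groups overlapped, with 2870 to 4506 TPM in allografts and 2736 to 4568 TPM in GEMM tumours. Normal oviduct had 434, 214 and 382 TPM and normal ovary 848, 935 and 1239.5 TPM, so that every tumour but 1 lay above every normal library. Pax8-BPR GEMM replicate 1, at 1179.7 TPM, was that exception and lay below ovary replicate 3.

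**Figure D2:**
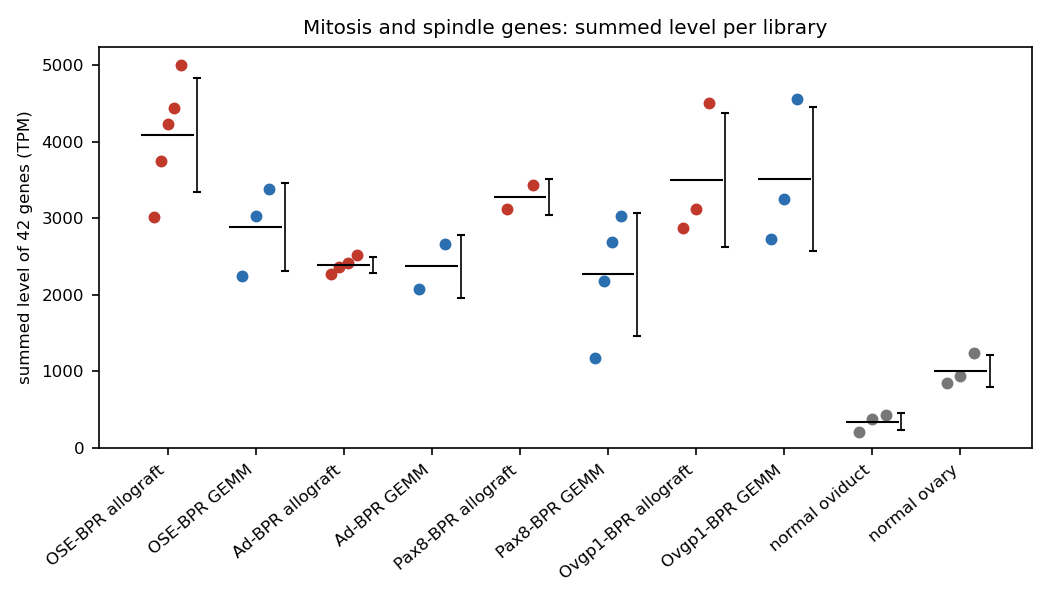
Summed level of the 42 genes in TPM for each library (points), by group, with the group mean (horizontal line) and ±1 SD (bar at the side). Tumour libraries lie between 1180 and 5002 TPM and normal libraries between 214 and 1239.5 TPM, and the allograft and GEMM points of a model overlap except in Pax8-BPR.

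High and low values of many genes fell in the same libraries. By CPM (counts scaled to a common library size by TMM), OSE-BPR allograft replicate 3 was the highest of the 26 tumours for 11 genes, Ovgp1-BPR GEMM replicate 3 and Ovgp1-BPR allograft replicate 1 for 7 each, and OSE-BPR allograft replicate 5 for 5. At the low end Pax8-BPR GEMM replicate 1 was the lowest tumour for 25 of the 42. By group mean CPM, OSE-BPR allografts were the highest tumour group for 18 genes and Pax8-BPR allografts for 9, while Ad-BPR allografts were the lowest for 14. Pttg1 (securin, the inhibitor of separase) kept another order. It had 170.4, 117, 162, 132 and 99.4 TPM in OSE-BPR allografts and 68.9, 105 and 98.8 TPM in OSE-BPR GEMM tumours, against 38.7, 46.4 and 71.5 TPM in Ovgp1-BPR allografts and 99.8, 36.7 and 28.8 TPM in Ovgp1-BPR GEMM tumours. Ovgp1-BPR GEMM replicate 3, the highest tumour for 7 of the other genes, was at 28.8 TPM for Pttg1, close to the normal oviduct.

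**Figure D3:**
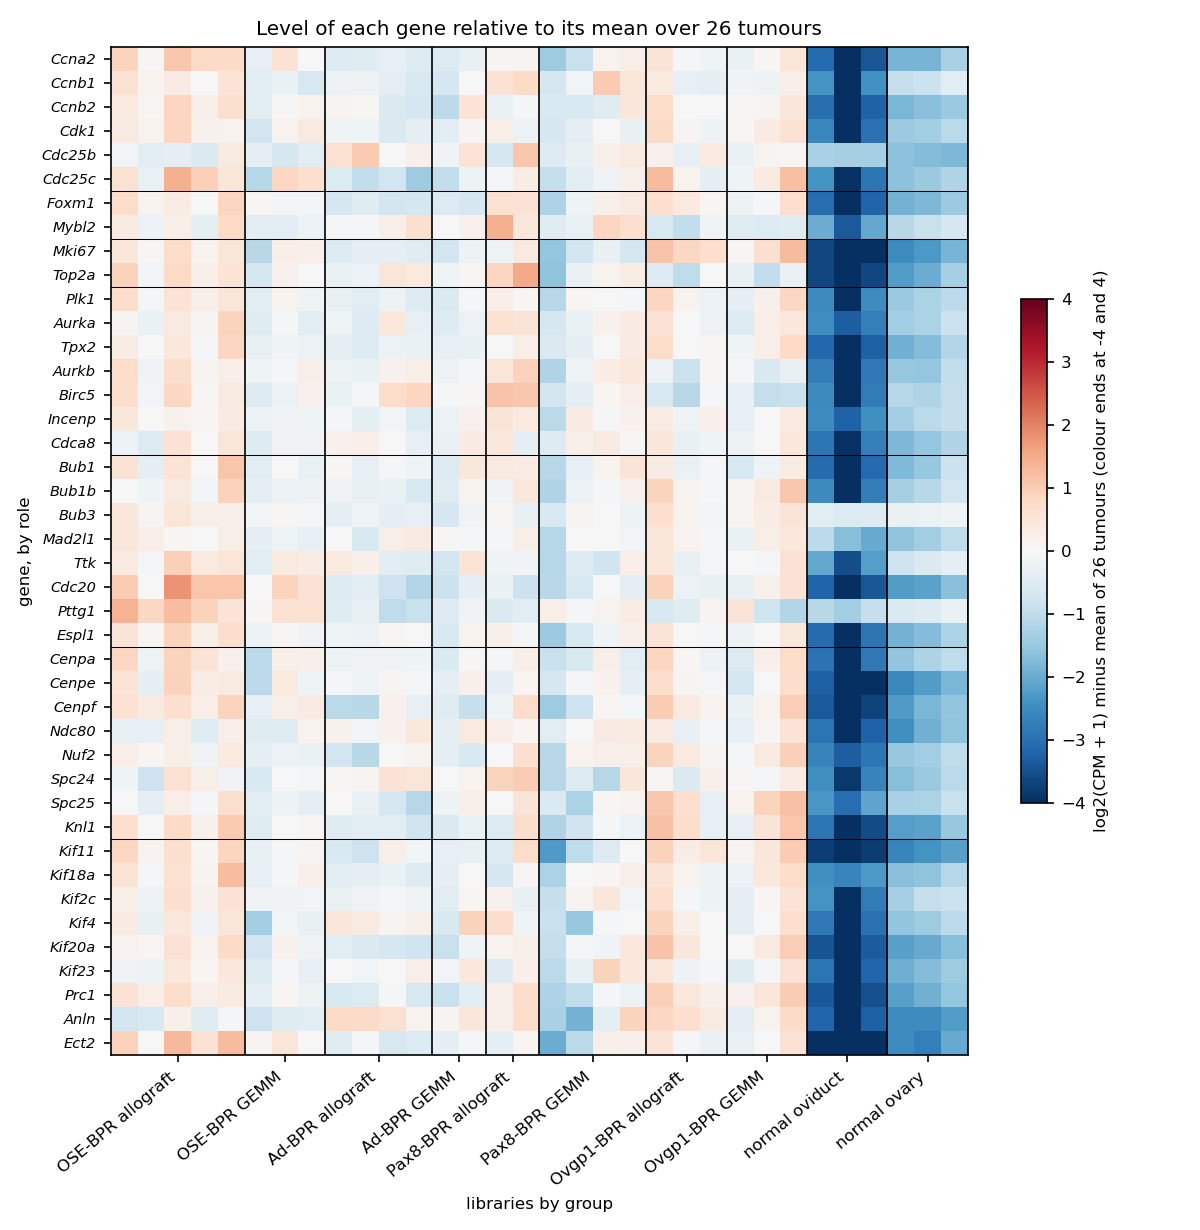
Level of each gene (rows, by role) in each library (columns, by group) as log2(CPM + 1) minus the mean of that gene over the 26 tumours. Normal oviduct and normal ovary are blue for nearly all genes, Pax8-BPR GEMM replicate 1 (first column of its group) is the lowest tumour for 25 of the 42, and Bub3, Pttg1, Mad2l1 and Cdc25b are the palest in the normal columns.

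Tumours were set against normal tissue with edgeR's quasi-likelihood F test on the counts of all 32 libraries, with Benjamini-Hochberg adjustment over 20887 genes and a call at an adjusted p below 0.05. In OSE-BPR GEMM tumours 31 of the 42 genes rose over normal ovary and none fell, where 11.6% of all genes rose, and the median log2 fold change of the 42 was 1.33, against 0.00 for all genes. Ranges of CPM did not overlap for 38 of the 42, all with the tumours above, which was so for 22.3% of all genes. Strain (FVB in these tumours, C57Bl/6 in the ovaries) and tumour cannot be told apart here.

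Ect2, the exchange factor that starts cytokinesis (ENSMUSG00000027699.19, chromosome 3, 27097222 to 27153878 of GRCm38), had 60.2, 77.8 and 47.6 TPM in OSE-BPR GEMM tumours and 7.84, 6.11 and 9.90 TPM in normal ovary. The lowest tumour was well above the highest ovary, and the log2 fold change was 2.67 ± 0.45 (adjusted p = 0.000202). Cdc20 (ENSMUSG00000006398.15, chromosome 4, 118432901 to 118437352) had 155, 293 and 235 TPM in the tumours and 28.3, 29.6 and 42.8 TPM in ovary, a log2 fold change of 2.56 ± 0.42 (adjusted p = 0.000132). Kif11 (ENSMUSG00000012443.4, chromosome 19, 37376403 to 37421859) had 33.1, 39.1 and 42.4 TPM in the tumours and 5.40, 6.32 and 7.71 TPM in ovary, a difference of 2.37 ± 0.43 (adjusted p = 0.000379). Mki67, the coat protein of mitotic chromosomes used to mark dividing cells (ENSMUSG00000031004.8, chromosome 7, 135689784 to 135716361), had 38.4, 103 and 92.9 TPM in tumours and 12.4, 14.3 and 20.1 TPM in ovary, again without overlap, and rose by 2.12 ± 0.46 (adjusted p = 0.00179). Cenpe, the kinesin that moves chromosomes to the spindle equator, rose by 2.08 ± 0.46 (adjusted p = 0.00206) to 24.5, 49.3 and 35.7 TPM in the tumours, against 6.22, 7.50 and 11.0 TPM in ovary.

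Cdk1 rose by 1.2988 ± 0.33 (adjusted p = 0.00608), Top2a by 1.68 ± 0.44 (adjusted p = 0.00736) and Foxm1, the late cell cycle transcription factor, by 1.69 ± 0.36 (adjusted p = 0.00146). Plk1, the Polo kinase of spindle assembly, passed narrowly at 1.13 ± 0.38 (adjusted p = 0.034), and its adjusted p was 0.0511 to 0.12 when any 1 of the 3 ovaries or either of OSE-BPR GEMM replicates 2 and 3 was left out. Of the 11 genes that did not pass, Bub3 and Ccnb1 had the smallest differences. Ccnb1 (cyclin B1) had 47.4, 55.6 and 41.7 TPM in tumours and 30.2, 28.9 and 38.6 TPM in ovary, and its log2 difference was 0.32 ± 0.40 (adjusted p = 0.601). Bub3, a checkpoint protein that also works outside mitosis, was at 84.9, 92.9 and 78.7 TPM in tumours and 63.7, 62.7 and 70.9 TPM in ovary, with 0.19 ± 0.19 (adjusted p = 0.515). The other 9 were Aurka at 0.87 ± 0.33 (adjusted p = 0.0607), Birc5 (survivin, of the chromosomal passenger complex) at 0.95 ± 0.39 (adjusted p = 0.0798), Bub1, Bub1b, Ttk, Spc25, Kif2c, Kif4 and Mybl2. Aurka was called by DESeq2 (adjusted p = 0.0397), voom (0.000716), limma on log2(TPM + 1) (0.021) and an edgeR fit of these 2 groups alone (0.0249), and Birc5 by voom (0.00424) and the fit of these 2 groups alone (0.0138). By role, 5 of the 6 cyclin, Cdk1 and Cdc25 genes, 7 of the 8 centromere and kinetochore genes, 7 of the 9 kinesin and cytokinesis genes, 5 of the 7 mitotic kinase and passenger complex genes, 4 of the 8 checkpoint and exit genes, both chromosome structure genes and 1 of the 2 transcription factors rose, and differences between roles were not tested. The oocyte list summed to 2.63 to 44.2 TPM in these tumours and 516 to 571 TPM in ovary, and the granulosa, theca and luteal list to 229 to 499 TPM in the tumours and 8859 to 9217 TPM in ovary, with 6 of the 14 oocyte genes and 1 of the 10 others at 0 in every one of these tumours. Of the epithelial list 6 of 8 genes rose in the tumours, and 5 of 7 smooth muscle genes fell, and the part of these lists in the results was not tested.

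Nearly all of the genes also rose over normal oviduct in the 3 models of oviduct origin. Of the 42 genes 40 rose in Ad-BPR GEMM tumours (11.7% of all genes rose), 41 in Pax8-BPR GEMM tumours (15.9%) and 42 in Ovgp1-BPR GEMM tumours (15.3%), and none fell. Median log2 fold changes of the 42 were 3.22, 3.26 and 3.62 in that order of models, against -0.07, -0.01 and -0.05 for all genes. The 3 comparisons share the oviduct libraries. Bub3 and Pttg1 did not pass in Ad-BPR, at 0.13 ± 0.21 (adjusted p = 0.696) and 0.85 ± 0.37 (adjusted p = 0.0939), and Bub3 did not pass in Pax8-BPR, at 0.35 ± 0.18 (adjusted p = 0.137). Leaving out oviduct replicate 2, the lowest of the 6 normal libraries for 40 of the 42 genes, gave medians of 2.87, 2.93 and 3.27 with 40, 41 and 41 genes called. With oviduct replicates 1 and 3, which carry ovarian transcripts, left out instead, the medians were 4.49, 4.45 and 4.80 with 39 genes called in each, the lone oviduct library then being assumed to vary like the other groups.

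Markers of other cell types moved in the same comparisons. All 7 smooth muscle genes fell in each of Ad-BPR, Pax8-BPR and Ovgp1-BPR, with median log2 fold changes of -4.17, -3.91 and -6.03, and the list summed to 624.7 to 949, 691 to 1315 and 623 to 751 TPM in those tumours, against 8393 to 11164 TPM in oviduct. Of the 6 genes of ciliated cells 2, 5 and 5 fell, with medians of -3.26, -3.22 and -3.60, and sums of 64.7 to 132, 28.1 to 261 and 28.2 to 69.6 TPM in the tumours against 317 to 479.6 TPM in oviduct. Among the 8 immune genes 7 rose in Pax8-BPR, 2 in Ad-BPR and none in Ovgp1-BPR. The immune sums were 1612 to 3530.0 TPM in Pax8-BPR, 1134 to 1284 TPM in Ad-BPR and 165 to 839 TPM in Ovgp1-BPR tumours, against 188 to 341 TPM in oviduct. Of the 8 epithelial genes 3 and 5 rose in Ad-BPR and Pax8-BPR, and none passed in Ovgp1-BPR. No marker of these lists was at 0 throughout a group, and their part in the rise of the 42 genes was not tested.

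Ect2 was among the 5 largest rises in each model. It had 34.3 and 50.6 TPM in Ad-BPR, 14.6, 25.3, 50.6 and 57.3 TPM in Pax8-BPR and 46.1, 53.4 and 77.2 TPM in Ovgp1-BPR GEMM tumours, against 2.42, 0.880 and 5.15 TPM in normal oviduct. No tumour overlapped the oviduct, and the log2 fold changes were 4.36 ± 0.51 (adjusted p = 1.45e-06) in Ad-BPR, 4.19 ± 0.48 (adjusted p = 6.08e-07) in Pax8-BPR and 4.73 ± 0.50 (adjusted p = 1.76e-07) in Ovgp1-BPR. Mki67 had 45.2 and 62.2 TPM in Ad-BPR, 20.5, 46.1, 55.5 and 46.0 TPM in Pax8-BPR and 87.1, 128 and 208 TPM in Ovgp1-BPR GEMM tumours, against 5.36, 0.820 and 3.86 TPM in oviduct. Its rise was 3.90 ± 0.51 (adjusted p = 7.43e-06) in Ad-BPR, 3.61 ± 0.48 (adjusted p = 4.16e-06) in Pax8-BPR and 5.10 ± 0.52 (adjusted p = 1.08e-07) in Ovgp1-BPR, where it was the largest of the 42. Kif11 rose by 3.91 ± 0.48 (adjusted p = 2.79e-06) in Ad-BPR and by 4.81 ± 0.48 (adjusted p = 7.44e-08) in Ovgp1-BPR, with 44.3, 56.2 and 87.2 TPM in Ovgp1-BPR GEMM tumours against a mean of 1.83 ± 0.563 TPM in oviduct (SD, n = 3). Cenpe rose by 4.17 ± 0.52 (adjusted p = 3.46e-06) in Ad-BPR and 4.04 ± 0.49 (adjusted p = 1.25e-06) in Pax8-BPR.

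Ndc80 at 3.93 ± 0.43 (adjusted p = 2.88e-07) and Bub1, the checkpoint kinase of the kinetochore, at 3.76 ± 0.50 (adjusted p = 5.2e-06) completed the 5 largest rises in Pax8-BPR with Ect2, Cenpe and Top2a. In Ovgp1-BPR the largest after Mki67 and Kif11 were Knl1 at 4.74 ± 0.55 (adjusted p = 7.38e-07), Ect2, and Prc1, the protein that bundles microtubules of the midzone, at 4.49 ± 0.39 (adjusted p = 8.23e-09). Top2a rose by 4.03 ± 0.50 (adjusted p = 3.36e-06), 3.88 ± 0.47 (adjusted p = 1.26e-06) and 3.58 ± 0.47 (adjusted p = 4.4e-06) in Ad-BPR, Pax8-BPR and Ovgp1-BPR. Cdk1, in the same order of models, rose by 3.10 ± 0.37 (adjusted p = 1.78e-06), 2.89 ± 0.34 (adjusted p = 8.3e-07) and 3.57 ± 0.36 (adjusted p = 7.86e-08). Ccnb1, which had not passed in OSE-BPR against ovary, rose here by 2.67 ± 0.45 (adjusted p = 0.000164), 3.29 ± 0.43 (adjusted p = 3.2e-06) and 2.93 ± 0.43 (adjusted p = 1.84e-05).

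The mitotic kinases Plk1 and Aurka rose in all 3 models, as did Birc5 and Foxm1. Plk1 rose by 2.73 ± 0.43 (adjusted p = 7.13e-05) in Ad-BPR, 2.85 ± 0.40 (adjusted p = 8.42e-06) in Pax8-BPR and 3.36 ± 0.42 (adjusted p = 1.86e-06) in Ovgp1-BPR. For Aurka, the kinase of spindle poles, the values were 2.66 ± 0.37 (adjusted p = 1.76e-05), 2.97 ± 0.35 (adjusted p = 8.19e-07) and 3.15 ± 0.36 (adjusted p = 5.62e-07). Birc5 gave 3.19 ± 0.45 (adjusted p = 1.57e-05), 3.07 ± 0.41 (adjusted p = 4.9e-06) and 2.50 ± 0.41 (adjusted p = 8e-05), and Foxm1 gave 2.96 ± 0.39 (adjusted p = 8.61e-06), 3.50 ± 0.37 (adjusted p = 2.23e-07) and 3.78 ± 0.39 (adjusted p = 1.07e-07). Bub3, Mad2l1, Cdc25b and Pttg1 stood at the low end, with log2 fold changes in Ovgp1-BPR of 0.82 ± 0.19, 1.74 ± 0.29, 1.33 ± 0.34 and 0.88 ± 0.34. All 26 tumours lay above all 6 normal libraries in CPM for 18 of the 42 genes, which was so for 1.54% of all genes tested. Among the other 24, Bub3 and Ttk each had 7 tumours at or below the highest normal library and Pttg1 had 11, and Pax8-BPR GEMM replicate 1 was at or below that library for 17 genes.

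**Figure D4:**
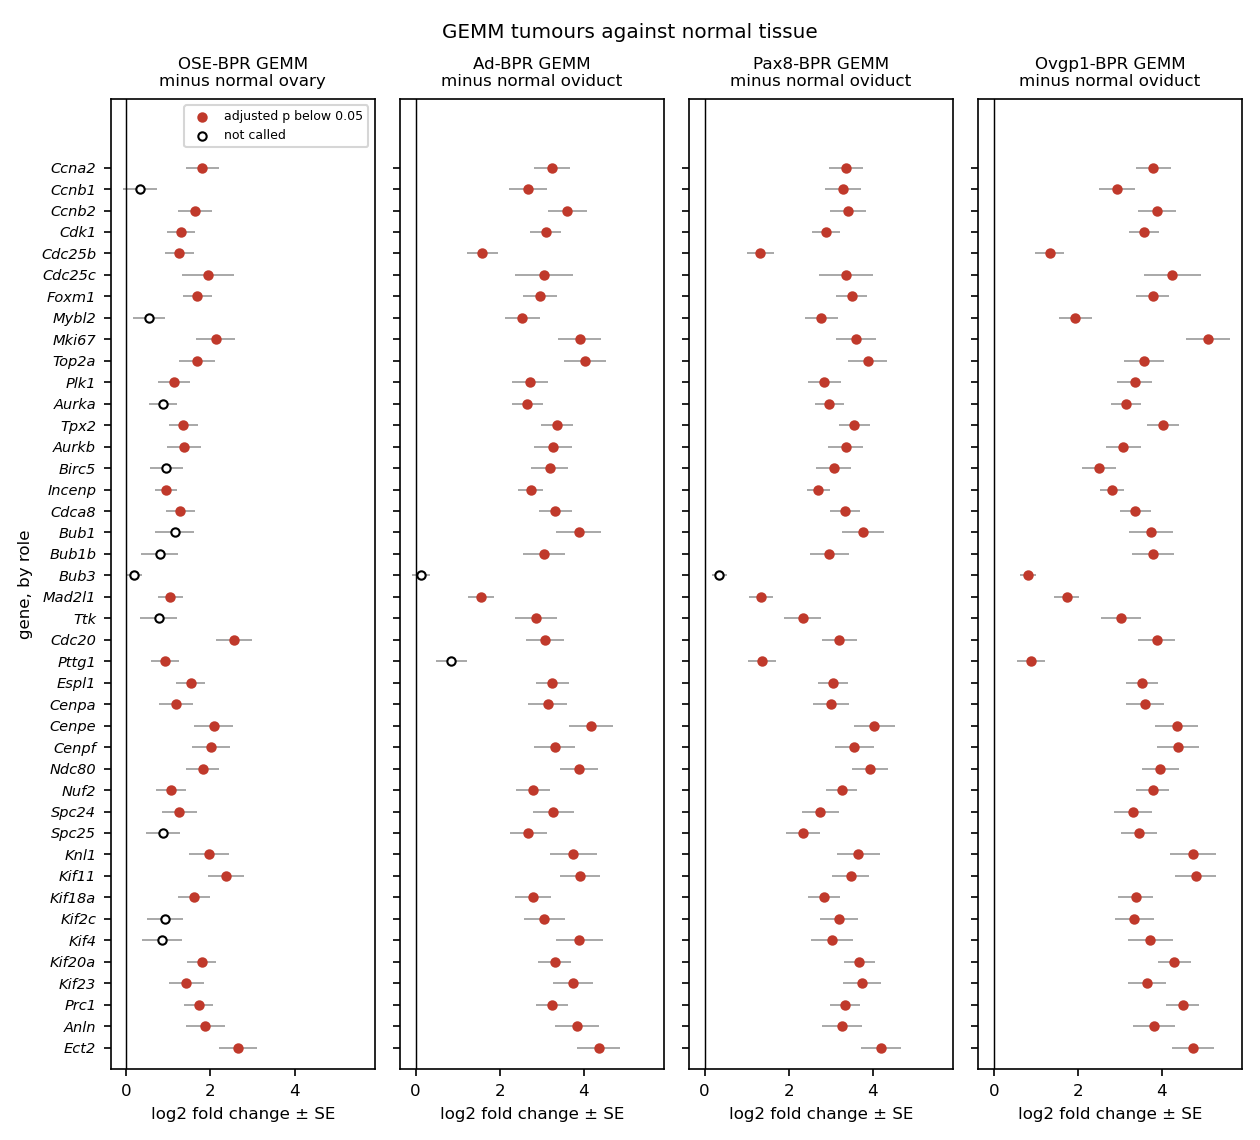
Log2 fold change ± SE of each of the 42 genes (rows, by role) in GEMM tumours against normal tissue, 1 panel per model. Filled points passed an adjusted p below 0.05 and open points did not, and the 42 points of each oviduct-origin model centre near 3.2 to 3.6 while those of OSE-BPR centre near 1.33.

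Genes of the same processes outside the 42 were counted in the same way. Of 74 other mitosis genes 52 rose in OSE-BPR GEMM tumours over ovary, led by Cit, Cep55 and Sgo1 at 2.62 ± 0.37, 2.38 ± 0.44 and 2.195 ± 0.38, and 63, 66 and 66 rose over oviduct in Ad-BPR, Pax8-BPR and Ovgp1-BPR, with 1 lower in Pax8-BPR. Cep55, a scaffold of the midbody that recruits the ESCRT machinery in cytokinesis, rose by 4.26 ± 0.47 in Pax8-BPR and 4.73 ± 0.49 in Ovgp1-BPR. Of 20 S phase genes 16 rose in OSE-BPR and 20 in each of the other 3.

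Allografts were set against GEMM tumours of the same model in a fit of the 26 tumours over 20000 genes. No gene of the 42 was called in any model, and neither was any other gene, so the share called was 0% in each of the 4 comparisons, in their mean and in the test of whether the difference varies between models. The counts at an unadjusted p below 0.05, for the 42 and for all genes, were 4 against 2.28% in OSE-BPR, 0 against 1.76% in Ad-BPR, 8 against 14.9% in Pax8-BPR and 0 against 2.1% in Ovgp1-BPR. With DESeq2 the 42 gave 0 calls in OSE-BPR, Ad-BPR and Ovgp1-BPR and 4 in Pax8-BPR, where 11, 11, 9 and 722 genes of all were called.

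In OSE-BPR the fold changes of all 42 genes were positive, from 0.18 to 0.78 with a median of 0.55 (all genes 0.00), although none passed. The median was 0.45 for the 74 other mitosis genes and 0.34 for the 20 S phase genes. The 42 are read in the same 8 libraries and are not independent of each other. Ccnb1 had 91.9, 73.2, 75.6, 64.8 and 91.0 TPM in allografts and 47.4, 55.6 and 41.7 TPM in GEMM tumours, without overlap, and a log2 difference of 0.78 ± 0.30 with an unadjusted p of 0.0158. Tpx2, the activator of Aurora A on the spindle, had 80.3, 68.6, 91.4, 62.9 and 131 TPM in allografts and 62.5, 69.8 and 60.1 TPM in GEMM tumours and differed by 0.57 ± 0.25. Prc1 had 181, 155, 210.5, 154 and 164 TPM in allografts and 100.03, 141 and 109 TPM in GEMM tumours and differed by 0.60 ± 0.27. Every one of those 5 allografts was above the 3 GEMM tumours for Prc1, and CPM ranges were apart in this way for 8 of the 42 genes, as for 1.03% of all genes. The log2 differences of the remaining genes followed in full were 0.49 ± 0.31 for Mki67, 0.65 ± 0.36 for Top2a, 0.38 ± 0.26 for Cdk1, 0.56 ± 0.30 for Plk1, 0.62 ± 0.30 for Aurka, 0.59 ± 0.31 for Birc5 and 0.49 ± 0.28 for Foxm1, each with an adjusted p of 1. Without OSE-BPR GEMM replicate 1 the differences were 0.16 for Mki67 and 0.11 for Cdk1, and with any 1 library left out they ran up to 0.71 for Mki67 and 0.61 for Cdk1. OSE-BPR allografts 1, 3 and 5 carried the highest sums and allograft 2 lay among the GEMM tumours.

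In Pax8-BPR 36 of the 42 genes had a positive log2 difference, with a median of 0.42 against -0.10 for all genes. The 74 other mitosis genes had a median of 0.41 and the 20 S phase genes 0.55. Ranges of CPM were apart for 10 genes with the allografts above (8.36% of all genes) and for 1 with the allografts below (11.3% of all genes), which was Pttg1. Top2a (ENSMUSG00000020914.17, chromosome 11, 98992943 to 99024189) had 407 and 569.8 TPM in allografts and 74.3, 181, 213 and 278 TPM in GEMM tumours. Both allografts lay above the 4 GEMM tumours for this gene, and the difference of 1.41 ± 0.40 (adjusted p = 0.146) did not pass. Birc5 (ENSMUSG00000017716.15, chromosome 11, 117849251 to 117855743) had 219 and 204 TPM in allografts and 56.6, 85.9, 99.5 and 127 TPM in GEMM tumours, a difference of 1.27 ± 0.35 (adjusted p = 0.137). Spc24, a subunit of the Ndc80 complex, had 83.7 and 95.2 TPM in allografts and 17.8, 28.6, 22.9 and 59.8 TPM in GEMM tumours, the largest difference of the 42 at 1.43 ± 0.38 (adjusted p = 0.133). Prc1 had 129.7 and 186 TPM in allografts and 43.6, 61.2, 102 and 101 TPM in GEMM tumours, with 1.04 ± 0.30 (adjusted p = 0.153).

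These were the 4 genes called by DESeq2, and Spc24 alone was called with edgeR when Pax8-BPR GEMM replicate 4 was left out (log2 difference 1.92, adjusted p = 0.0439). Pttg1 went the other way, with 34.2 and 41.4 TPM in allografts, 59.1, 58.5, 56.9 and 71.5 TPM in GEMM tumours and a difference of -0.69 ± 0.39 (adjusted p = 0.419). The other genes followed in full differed by 0.88 ± 0.36 (adjusted p = 0.259) for Mki67, 0.37 ± 0.34 (adjusted p = 0.642) for Ccnb1, 0.35 ± 0.30 (adjusted p = 0.617) for Cdk1, 0.39 ± 0.34 (adjusted p = 0.625) for Plk1, 0.64 ± 0.35 (adjusted p = 0.397) for Aurka and 0.68 ± 0.32 (adjusted p = 0.333) for Foxm1. Without Pax8-BPR GEMM replicate 1, the tumour with the lowest sum, the median of the 42 was 0.21 and Top2a and Birc5 differed by 1.14 and 1.11. With 1 library left out Ccnb1 ran from 0.14 (without GEMM replicate 1) to 0.72 (without GEMM replicate 3), and Cdk1 from 0.11 (without allograft replicate 1) to 0.62 (without allograft replicate 2). The list of 8 immune genes summed to 417 to 594 TPM in Pax8-BPR allografts and 1612 to 3530.0 TPM in Pax8-BPR GEMM tumours. Sums of other lists were apart too. In the same order, the epithelial list summed to 10469 to 11013.5 and 2232 to 8918 TPM. The fibroblast and matrix list summed to 2545 to 3325 and 3536 to 5005 TPM, and the smooth muscle list to 313 to 641 and 691 to 1315 TPM. No gene of these lists was called or at 0 throughout a group, and their part in these values was not tested.

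Ad-BPR and Ovgp1-BPR showed no common direction. In Ad-BPR 20 of the 42 genes had a positive difference and the median was -0.02, which became 0.30 without Ad-BPR GEMM replicate 2 and -0.23 without replicate 1. In Ovgp1-BPR 23 were positive and the median was 0.02, which became 0.22 without Ovgp1-BPR GEMM replicate 3, -0.24 without allograft replicate 1 and -0.15 without GEMM replicate 1. All adjusted p-values of the 42 were 1 in both models. The differences in Ad-BPR were 0.02 ± 0.37 for Mki67, 0.17 ± 0.42 for Top2a, -0.08 ± 0.34 for Ccnb1, -0.20 ± 0.30 for Cdk1, -0.04 ± 0.35 for Plk1, 0.27 ± 0.36 for Aurka, 0.42 ± 0.37 for Birc5 and -0.02 ± 0.33 for Foxm1. Those in Ovgp1-BPR were 0.16 ± 0.34 for Mki67, 0.03 ± 0.40 for Top2a, -0.03 ± 0.32 for Ccnb1, -0.07 ± 0.29 for Cdk1, 0.03 ± 0.33 for Plk1, 0.02 ± 0.33 for Aurka, 0.16 ± 0.34 for Birc5 and 0.21 ± 0.31 for Foxm1. The groups overlapped for all 42 genes in both models.

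Over the mean of the 4 models 41 of the 42 differences were positive, with a median of 0.24 against -0.02 for all genes, and 7 had an unadjusted p below 0.05, as 6.05% of all genes did. Medians were 0.20 for the 74 other mitosis genes and 0.26 for the 20 S phase genes. Birc5 had the lowest adjusted p, at 0.61 ± 0.17 (adjusted p = 0.708). For Mki67, Top2a and Ccnb1 the values were 0.38 ± 0.17 (adjusted p = 0.813), 0.57 ± 0.20 (adjusted p = 0.805) and 0.26 ± 0.16 (adjusted p = 0.847). Cdk1, Plk1, Aurka and Foxm1 gave 0.12 ± 0.15 (adjusted p = 0.973), 0.23 ± 0.17 (adjusted p = 0.883), 0.39 ± 0.17 (adjusted p = 0.805) and 0.34 ± 0.16 (adjusted p = 0.816). The test of whether the difference varies between models gave 1 of the 42, Spc24, at an unadjusted p of 0.0398, where 4.51% of all genes were below 0.05, and no adjusted p below 1.

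**Figure D5:**
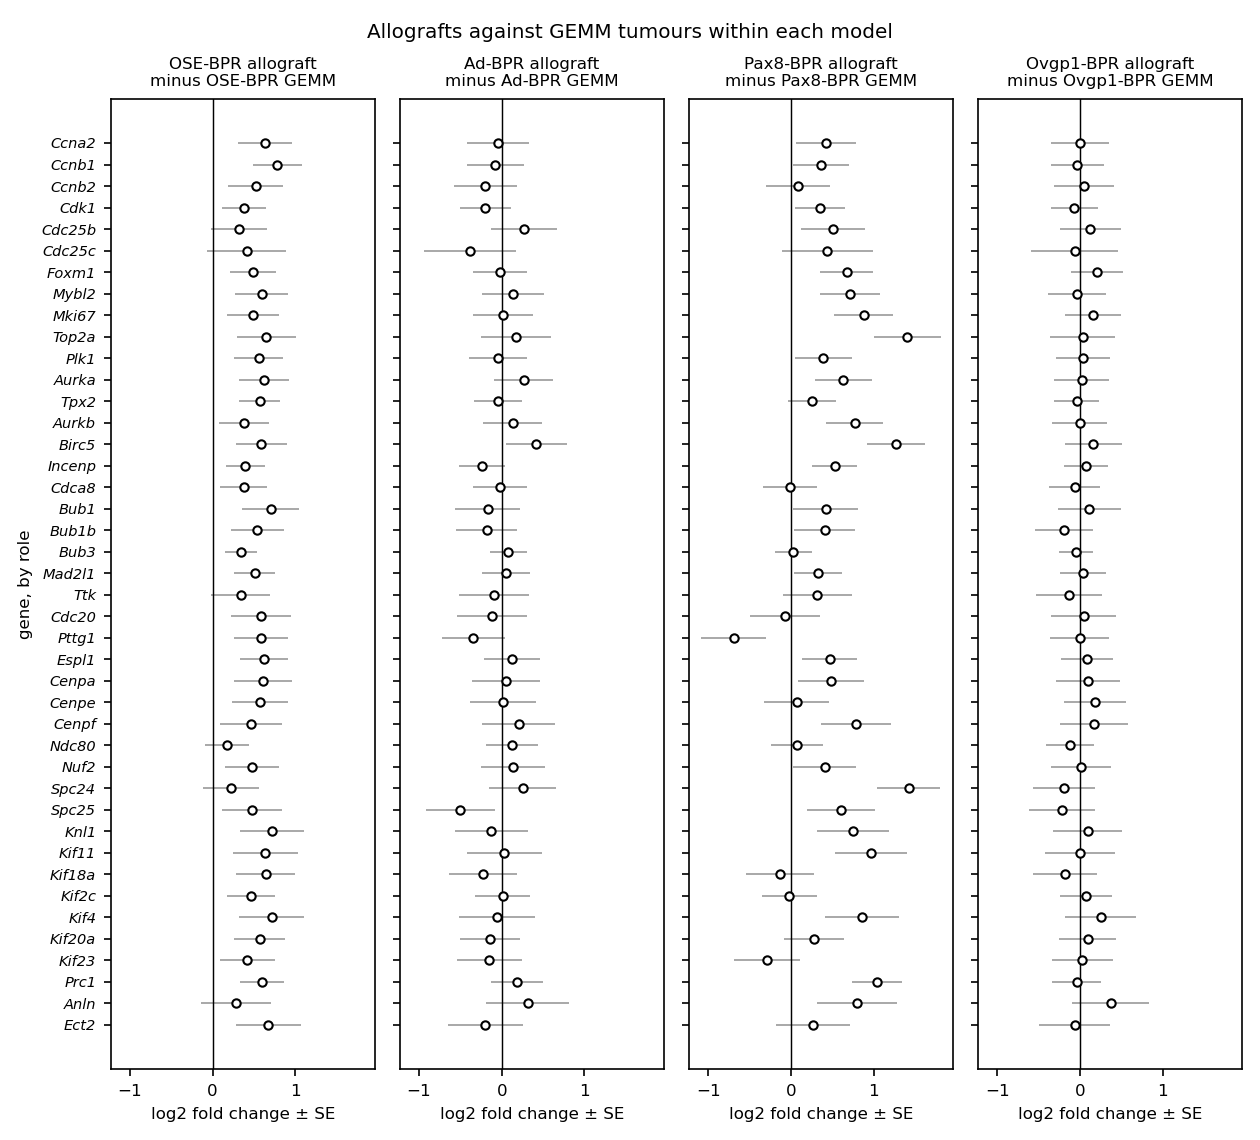
Log2 fold change ± SE of each of the 42 genes (rows, by role) in allografts against GEMM tumours, 1 panel per model, all open because none passed an adjusted p below 0.05. All 42 points lie above 0 in OSE-BPR (median 0.55) and 36 in Pax8-BPR, and they scatter about 0 in Ad-BPR and Ovgp1-BPR.

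The 4 models were then compared with each other by a single F test over GEMM tumours and another over allografts. Among GEMM tumours 2 of the 42 genes differed, where 37.2% of all genes did, and among allografts 15 differed, where 46.4% of all genes did. Mki67 (adjusted p = 0.00623) averaged 141 ± 61.7 TPM in Ovgp1-BPR, 78.1 ± 34.8 TPM in OSE-BPR, 53.7 ± 12.0 TPM in Ad-BPR and 42 ± 15.0 TPM in Pax8-BPR GEMM tumours (mean ± SD, n = 3, 3, 2 and 4). Ovgp1-BPR overlapped OSE-BPR but not Ad-BPR or Pax8-BPR. Prc1 (adjusted p = 0.0071; ENSMUSG00000038943.16, chromosome 7, 80294450 to 80316259) kept the same order at the top, with 201 ± 58.7 TPM in Ovgp1-BPR, 117 ± 21.5 TPM in OSE-BPR, 74.7 ± 9.57 TPM in Ad-BPR and 76.8 ± 29.1 TPM in Pax8-BPR. Neither was called when Ovgp1-BPR GEMM replicate 3 was left out, and the count was 6 without Ovgp1-BPR GEMM replicate 1 and 6 without Pax8-BPR GEMM replicate 4. The other genes followed in full had adjusted p-values of 0.785 for Top2a, 0.162 for Ccnb1, 0.195 for Cdk1, 0.375 for Plk1, 0.55 for Aurka, 0.351 for Birc5 and 0.267 for Foxm1.

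Among allografts Pttg1 had the lowest adjusted p (0.000308), with 136 ± 29.8 TPM in OSE-BPR (n = 5), 52.2 ± 17.2 TPM in Ovgp1-BPR (n = 3), 37.8 ± 5.06 TPM in Pax8-BPR (n = 2) and 35.0 ± 8.99 TPM in Ad-BPR (n = 4). OSE-BPR lay above the other 3 without overlap, and those 3 did not separate from each other completely. Cdc20 (adjusted p = 0.000781) had 337 ± 129 TPM in OSE-BPR, 187 ± 98.4 TPM in Ovgp1-BPR, 88.5 ± 25.5 TPM in Pax8-BPR and 83.2 ± 18.2 TPM in Ad-BPR. For this gene OSE-BPR overlapped Ovgp1-BPR, and Pax8-BPR overlapped Ad-BPR. Birc5 (adjusted p = 0.00925) was highest in Pax8-BPR allografts, at 211 ± 11.1 TPM, against 145 ± 40.5 TPM in OSE-BPR, 136 ± 47.7 TPM in Ad-BPR and 79.7 ± 33 TPM in Ovgp1-BPR. Top2a (adjusted p = 0.0186) was also highest in Pax8-BPR and lowest in Ovgp1-BPR, with 488 ± 115 TPM in Pax8-BPR and 167 ± 69.3 TPM in Ovgp1-BPR. Mki67 (adjusted p = 0.0131) had Ovgp1-BPR at the top, with 154 ± 22.1 TPM in Ovgp1-BPR, 108 ± 18.9 TPM in OSE-BPR, 75.3 ± 19.7 TPM in Pax8-BPR and 53.5 ± 2.55 TPM in Ad-BPR.

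The others called among allografts were Foxm1 (adjusted p = 0.00666), Mybl2, Ccna2, Ccnb1 (adjusted p = 0.0426), Cdc25c, Bub3, Knl1, Kif20a, Ect2 and Prc1. Foxm1 and Mybl2 are both activators of late cell cycle genes. Foxm1 was at 93.3 ± 19.6 TPM in OSE-BPR allografts and 40.2 ± 1.60 TPM in Ad-BPR allografts, while Mybl2 was at 54.0 ± 24.0 TPM in Pax8-BPR and 22.6 ± 6.58 TPM in Ovgp1-BPR. On the CPM scale Pax8-BPR was the highest allograft group for both, at 176 ± 3.29 for Foxm1 and 99.1 ± 45.3 for Mybl2. Cdk1, Plk1 and Aurka did not pass, at adjusted p-values of 0.0956, 0.108 and 0.338. Without Ad-BPR allograft replicate 4 the count was 9. Of the 74 other mitosis genes 22 differed among GEMM tumours and 23 among allografts. The models differ in strain, in the way Cre was given and in the Trp53 allele, which cannot be told apart here.

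OSE-BPR GEMM tumours were also set against the mean of the 3 oviduct-origin models. No gene of the 42 was called, where 26% of all genes were, and 2 of the 42, Cdc20 and Pttg1, had an unadjusted p below 0.05, against 39% of all genes. Cdc20 differed by 0.82 ± 0.32 (adjusted p = 0.0593), with 155, 293 and 235 TPM in OSE-BPR GEMM tumours, 77.4 and 106 TPM in Ad-BPR, 51.9, 92.2, 131 and 108 TPM in Pax8-BPR and 128, 180.1 and 248 TPM in Ovgp1-BPR. In TPM its OSE-BPR values lay within the Ovgp1-BPR range or above it, and above both other models. In CPM OSE-BPR GEMM replicate 1, at 130.8, was below Pax8-BPR GEMM replicate 3, at 133.9. Pttg1 differed by 0.61 ± 0.29 (adjusted p = 0.119). Cdc20 was called without OSE-BPR GEMM replicate 1 and without Pax8-BPR GEMM replicate 3, and Pttg1 without Ovgp1-BPR GEMM replicate 1. The genes followed in full gave 0.07 ± 0.28 for Mki67, 0.11 ± 0.32 for Top2a, -0.44 ± 0.27 for Ccnb1, 0.02 ± 0.24 for Cdk1, -0.08 ± 0.27 for Plk1, -0.22 ± 0.28 for Aurka, 0.12 ± 0.28 for Birc5 and 0.13 ± 0.25 for Foxm1, with adjusted p-values of 0.895 for Mki67, 0.851 for Top2a, 0.238 for Ccnb1, 0.965 for Cdk1, 0.874 for Plk1, 0.594 for Aurka, 0.793 for Birc5 and 0.744 for Foxm1. The median of the 42 was -0.06. Strain, FVB against C57Bl/6, and site of origin cannot be told apart in this comparison. Of the other 74 mitosis genes 7 were called, 3 higher and 4 lower, among them Cenpm at 1.2998 ± 0.20, Hjurp at -1.16 ± 0.24 and Psrc1 at 1.12 ± 0.28.

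Normal oviduct was last compared with normal ovary in a fit of those 6 libraries over 17334 genes. Of the 42 genes 39 were lower in oviduct, where 24.5% of all genes were lower, and 1, Cdc25b, was higher, where 28.5% of all genes were higher. The median log2 fold change was -1.84, against 0.02 for all genes. Only Mad2l1 at -0.15 ± 0.28 (adjusted p = 0.679) and Bub3 at -0.20 ± 0.07 (adjusted p = 0.0531) were not called. In the fit that treats the animal as a block 39 of the 42 were called. Markers of other cell types differed between the tissues too. In oviduct 8 of 8 epithelial genes, 7 of 7 smooth muscle genes and 6 of 6 genes of ciliated cells were higher, with medians of 4.22, 2.56 and 5.63, while the list of 10 granulosa, theca and luteal genes had 9 lower and a median of -3.61. The epithelial list summed to 1618 to 1945 TPM in oviduct and 74.7 to 133 TPM in ovary, the smooth muscle list to 8393 to 11164 and 1740 to 2224 TPM and the ciliated list to 317 to 479.6 and 7.98 to 9.02 TPM in the same order of tissues. No marker of these lists was at 0 throughout either tissue, and their part in the lower level of the 42 genes was not tested.

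Bub1 had 3.02, 0.800 and 1.97 TPM in oviduct and 7.06, 7.23 and 12.6 TPM in ovary, the largest difference at -2.38 ± 0.59 (adjusted p = 0.0125). Top2a had 21.7, 7.06 and 19.2 TPM in oviduct and 50.8, 60.4 and 87.3 TPM in ovary, with -2.16 ± 0.45 (adjusted p = 0.00606). The tissues did not overlap for either gene. Ccnb1 had 9.48, 2.07 and 9.84 TPM in oviduct and 30.2, 28.9 and 38.6 TPM in ovary, with -2.11 ± 0.51 (adjusted p = 0.0117), and Kif4 and Ttk, a chromosome kinesin and the checkpoint kinase Mps1, differed by -2.09 ± 0.52 (adjusted p = 0.0125) and -2.09 ± 0.48 (adjusted p = 0.00969). The values for Cdk1, Aurka, Birc5 and Foxm1 were -1.82 ± 0.37 (adjusted p = 0.00551), -1.76 ± 0.28 (adjusted p = 0.00196), -2.0030 ± 0.45 (adjusted p = 0.00832) and -1.77 ± 0.39 (adjusted p = 0.0078). Mki67 at -2.06 ± 0.59 (adjusted p = 0.0223) lost its call without ovary replicate 3 or without oviduct replicate 3 (adjusted p = 0.0657 and 0.057), and Plk1 at -1.68 ± 0.45 (adjusted p = 0.0172) without ovary replicate 3 (0.0538). Cdc25b, a phosphatase that activates Cdk1, had 27.8, 25.9 and 23.6 TPM in oviduct and 20.5, 18.5 and 17.4 TPM in ovary and rose by 0.50 ± 0.08 (adjusted p = 0.00228). In a fit of all 32 libraries its adjusted p was 0.495.

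Ovary replicate 3 was the highest of the 6 normal libraries for 41 of the 42 genes, and oviduct replicate 2, with the fewest ovarian transcripts, was the lowest for 40. Without oviduct replicates 1 and 3 the median was -3.15. Of the other mitosis genes 61 of 74 and of the S phase genes 18 of 20 were lower in oviduct.

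Exons of 12 of the 42 genes overlap those of another annotated gene, in most on the opposite strand, and no source used here gives the strand setting, so reads of such pairs may not be separated. Cdc25b overlaps Spef1, a gene of cilia, which had a median of 52 TPM in oviduct and 18.65 TPM in ovary. Cdc20 overlaps Elovl1, which ran at medians of 94.7 to 208 TPM over the 10 groups, Kif20a overlaps Cdc23 (31.2 to 80.4 TPM), and Ccna2 overlaps Exosc9 (21.7 to 37.7 TPM). The other 8 are Foxm1, Plk1, Cdca8, Cdc25c, Kif4, Kif18a, Prc1 and Top2a. Ccnb1, Ccnb2 and Kif4 have annotated processed pseudogenes, which were at medians of at most 1.39 TPM in any group.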

How the data were processed

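Total RNA, prepared with a Qiagen RNeasy kit per the labels' protocols, was sequenced from 32 libraries. The authors deposited, for each sample, RSEM expected counts per gene, and these estimated counts need not be whole. A deposited TPM value stands beside each count. The tools named in the submitters' processing notes are bcl2fastq, cutadapt 1.18, STAR 2.7.0f, RSEM 1.3.1 and Picard. No source used here gives the strand setting.

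Expected counts were rounded and tested with edgeR 4.0.16 (R 4.3.3; TMM scaling, filterByExpr with a minimum count of 10 and a minimum total of 15, quasi-likelihood F test) with Benjamini-Hochberg adjustment over all genes tested and a threshold of 0.05. The tumours (26 libraries, 20000 genes), all libraries (32, 20887 genes) and normal tissues (6, 17334 genes) were fitted separately, and standard errors are the log2 fold change divided by the square root of F. The filters kept at least 99.87% of counts, and TMM factors were 0.891 to 1.12. The steps were tested on simulated counts. Alternatives used DESeq2 1.42.0, limma 3.58.1 (voom with quality weights, and log2(TPM + 1)), RLE scaling, no filter, fits of the 2 groups alone, fits of all libraries and fits with libraries left out.

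Titles carry separate animal numbers within a group, but allografts may share a source tumour, and p-values then measure only the spread between these samples. Of 39 pairs of replicates none agreed within counting noise (lowest chi-square per degree of freedom 10.1). Among Ad-BPR allografts this value was 37.9 for replicates 1 and 2 and 54.2 for replicates 3 and 4, but 143 to 149 for the pairs across. These allografts thus paired off by likeness, the tests counted each as separate, and whether the pairs share a source was not tested. Oviduct and ovary replicates 1, 2 and 3 come from the same 3 animals by title, so the numbers pair them, and the correlations of their deviations from the group means were -0.08, -0.04 and 0.06. The 42 genes, the context and marker lists and the tests were chosen with earlier results of these data known. All 42 genes were reported; full statistics were given for Mki67, Top2a, Ccnb1, Cdk1, Plk1, Aurka, Birc5 and Foxm1 and for up to 5 called genes of largest fold change in each direction, and other genes named were chosen after their values were seen. Promoters are from RefSeq (GRCm38.p6) and coordinates from GENCODE M21 (GRCm38).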

Additional observations from a re-analysis of the deposited data

Results flagged for a closer look

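In 126 combinations of a gene and a group of 4 or 5 libraries (3 groups), 6 had a library far from the others by Dixon's 95% criterion, and chance flags about 1 in 20 such combinations. Values are in CPM. Prc1 was at 163.7 in Ad-BPR allograft replicate 3, with the other 3 at 109 to 116. Cdk1 was at 167.6 in OSE-BPR allograft replicate 3, with the other 4 at 102 to 119. Ccnb2 (cyclin B2) was at 107 in Pax8-BPR GEMM replicate 4, with the others at 49.5 to 54.5. Pax8-BPR GEMM replicate 1 was low for Plk1 at 28 (others 59.5 to 64.7), for the checkpoint gene Mad2l1 at 31.9 (others 66.1 to 71.9) and for the kinetochore gene Nuf2 at 13.1 (others 32.2 to 34.3).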

How the results depend on the processing

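Of 2229 values under alternative settings 2106 were scored as unchanged. For the log2 difference of a gene this meant the same direction and the same side of the threshold. For a count of genes called it meant a similar count, and for a median a shift within the spread between libraries. Only differences of single genes were scored for direction, so medians that changed sign are not counted as reversed. Of the differences of single genes 51 changed direction, none of them called in the analysis reported. The cause was not tested for any change below. In Pax8-BPR allografts against GEMM tumours 4 of the 42 genes were called by DESeq2, and 0 to 1 with 1 library left out. The median in Ad-BPR allografts against GEMM tumours was -0.23 to 0.30 with 1 library left out, and that in Ovgp1-BPR -0.24 to 0.22. Among GEMM tumours the 2 genes that differed between models became 4 with DESeq2, 10 with voom, 8 on log2(TPM + 1), 5 without both Ovgp1-BPR tumours that stand apart (GEMM replicate 1 and allograft replicate 3) and 0 to 6 with 1 library left out. Among allografts 26 were called with voom and 9 to 17 with 1 library left out. For OSE-BPR against oviduct-origin GEMM tumours the calls were 3 with voom, 2 on log2(TPM + 1), 1 without both Ovgp1-BPR tumours and 0 to 1 with 1 library left out. Without both oviduct libraries with ovarian transcripts the medians were 4.49 in Ad-BPR, 4.45 in Pax8-BPR and 4.80 in Ovgp1-BPR GEMM tumours against oviduct, and -3.15 in oviduct against ovary. With 1 library left out, 21 to 31 of the 42 genes rose in OSE-BPR over ovary and 27 to 41 differed between oviduct and ovary.

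Direction changed for small differences that had not passed. In Ovgp1-BPR allografts against GEMM tumours, voom gave 0.19 for Ccnb1 and 0.12 for Cdk1, log2(TPM + 1) gave -0.083 for Top2a and -0.014 for Plk1, and leaving out both Ovgp1-BPR tumours gave -0.157 for Top2a, 0.056 for Ccnb1, 0.0093 for Cdk1 and -0.052 for Aurka. In OSE-BPR against oviduct-origin tumours, no filter gave -0.026 for Cdk1, voom 0.070 and log2(TPM + 1) 0.081 for Plk1, and leaving out both Ovgp1-BPR tumours -0.049 for Mki67 and -0.055 for Cdk1. With 1 library left out, Ad-BPR differences ran from -0.24 to 0.35 for Mki67, -0.38 to 0.34 for Ccnb1, -0.44 to 0.12 for Cdk1, -0.28 to 0.27 for Plk1 and -0.080 to 0.045 for Foxm1. Those in Ovgp1-BPR ran from -0.088 to 0.52 for Mki67, -0.26 to 0.26 for Top2a, -0.31 to 0.12 for Ccnb1, -0.37 to 0.13 for Cdk1, -0.32 to 0.40 for Plk1, -0.24 to 0.21 for Aurka and -0.14 to 0.40 for Birc5. For OSE-BPR against oviduct-origin tumours they ran from -0.15 to 0.40 for Mki67, -0.082 to 0.32 for Top2a, -0.20 to 0.29 for Cdk1, -0.24 to 0.060 for Plk1 and -0.079 to 0.27 for Birc5.

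With the animal as replicate block, 39 of the 42 genes differed between oviduct and ovary, against 40 without the block, and the median was -1.93.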
